A study of Drosophila melanogaster with 42 samples.

Results

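The data described here are the 10 RNA-seq libraries of other parts of the body, that is flies without their heads, from male F1 offspring of dATF-2KO fathers. They are 10 of the 42 libraries of the series and were taken by their labels, with 5 libraries from offspring of unrestrained fathers and 5 from offspring of fathers that had been restrained. Fathers of both groups carried dATF-2KO, a deletion of the whole gene for the transcription factor dATF-2 in a w1118 background, and mothers of both groups were w1118 flies, so the offspring of both groups could receive the gene only from their mothers. Restraint means 3 sessions of 10 h between soft sponge plugs, and the comparison asks whether restraint of a father that lacks dATF-2 is followed by a change in the RNA of its sons. Each library was made from a pool of 50 flies, whose age is given as 5 days, 5 to 6 days or 6 to 7 days in different sources, and it is not stated if separate crosses gave the pools. The p-values therefore measure the spread between these pools. A male body without its head holds testes and accessory glands, the fat body, gut, muscle and nerve cord. The accessory glands make the seminal fluid proteins, many of them short secreted peptides that pass to the female with the sperm. The fat body makes storage proteins, lipid enzymes and immune peptides, and the gut makes digestive enzymes. Small nucleolar RNAs (snoRNAs) of the H/ACA class guide the pseudouridylation of ribosomal RNA, and most fly snoRNAs are cut from introns of host genes.

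Values are FPKM, fragment numbers scaled to transcript length and to the number of fragments mapped. A gene was called where its limma adjusted p (Benjamini-Hochberg over all genes tested) was under 0.05 and it differed 1.4-fold or more on the scale log2(FPKM + 0.5), which understates the change of low genes. Of 12363 genes that averaged 1 FPKM or more, 15 were higher after paternal restraint (0.121%) and 3 were lower (0.0243%). Among the higher genes, CG42455 reached that average only through the restrained libraries. Without restrained replicate 3, which held yolk and eggshell RNA, 9 of 12301 genes were higher (0.0732%) and 4 were lower (0.0325%). The higher genes were short: seminal fluid and immune peptides, H/ACA snoRNAs and noncoding RNAs, of which 13 of 15 had a longest transcript under 400 nt, against 4.45% of the tested genes with a known length. The lower genes were a cytochrome P450, a lipase and a gene of no named role, of 1091 to 2464 nt. The median log2 change of all tested genes was -0.02, and at an unadjusted p under 0.05 there were 379 higher and 527 lower genes. Without restrained replicate 3 the median was -0.004 and the split turned round, to 461 higher and 398 lower genes.

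**Figure D1:**
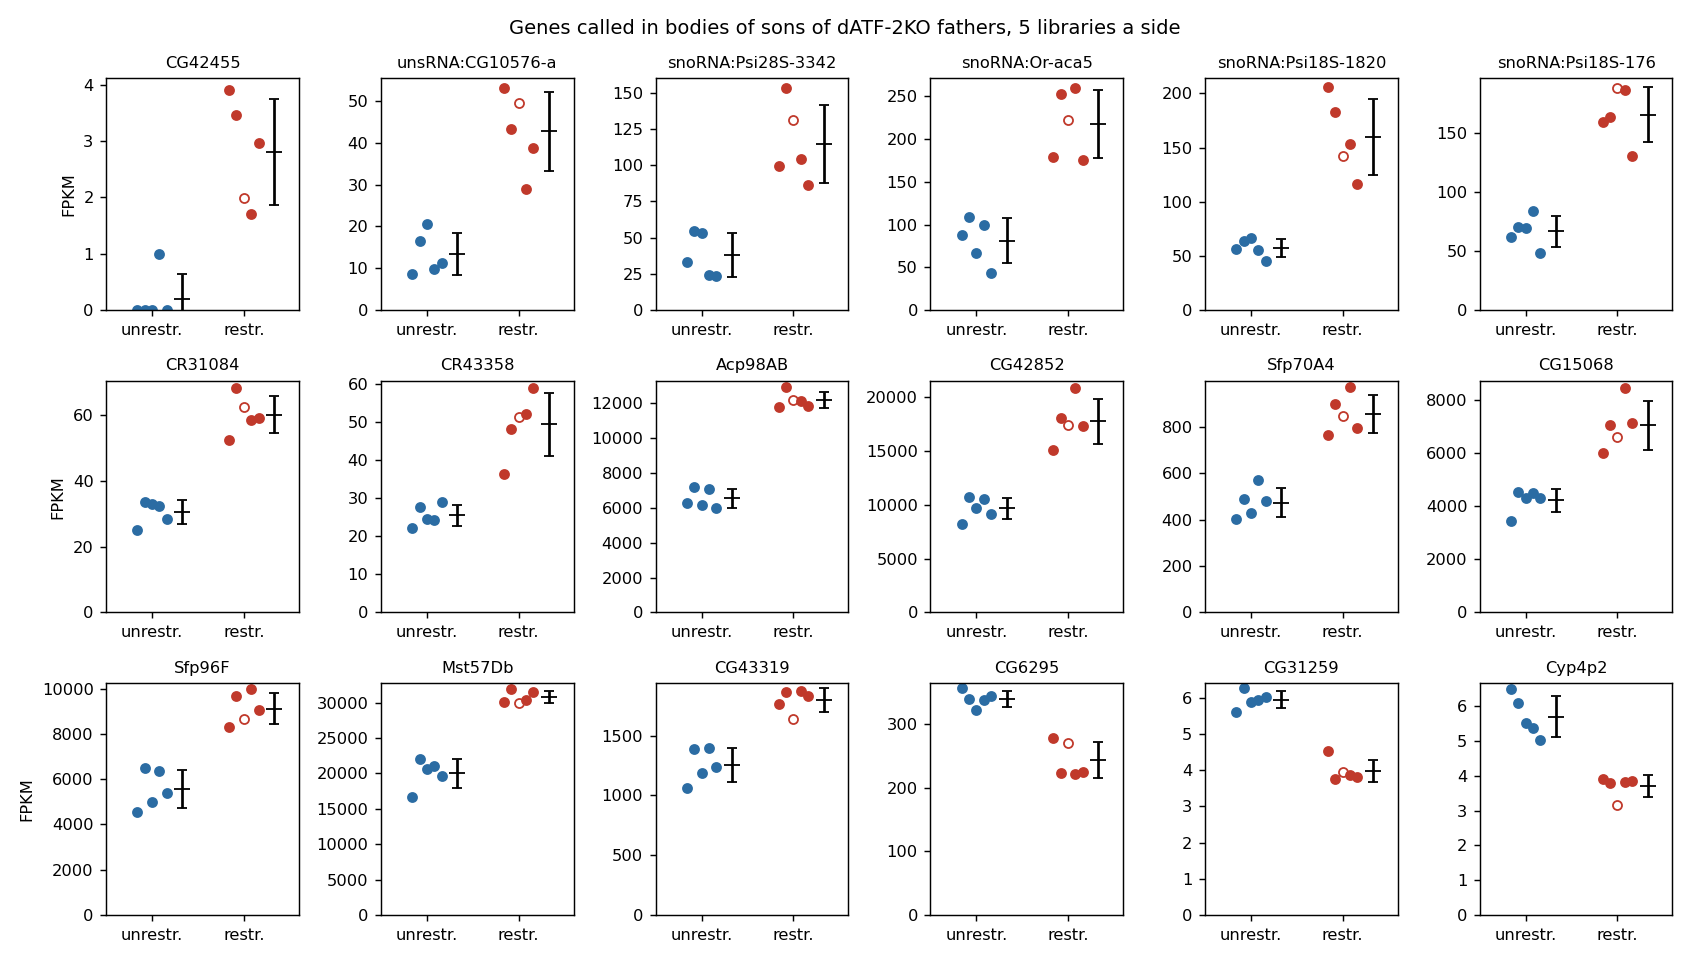
FPKM (y axis, linear from 0) of the 18 called genes in bodies of sons of dATF-2KO fathers, with 1 point per library, blue for unrestrained and red for restrained fathers, an open point for restrained replicate 3, and a bar for the mean and SD of the 5 libraries of a group. In each of the 18 panels the points of the 2 groups lie apart, and restrained replicate 3 lies below the other 4 restrained libraries for Cyp4p2, at 3.16 FPKM against 3.79 to 3.90.

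FPKM summed over the 15061 genes of the table lay between 1014446 and 1055279 in unrestrained and between 1030754 and 1112219 in restrained libraries. Of 1849 low genes, 82.5% had values that were whole multiples of what 1 fragment was worth, which gave the relative depth of the libraries: 1 fragment was worth 0.846 to 1.22 times as much as in unrestrained replicate 1. With these steps the values of 8116 genes came out as whole fragments in the 10 libraries within a tolerance of 0.02. Restrained replicate 3 stood apart: 80 genes of at least 1 FPKM there were at 10 or more times the highest of the other 9 libraries, against 4 to 11 such genes in each other library. Of its 80 genes, 73 were protein coding, and at most 2 were so in any other library. The other libraries' genes of this kind were mostly noncoding RNAs. Atf-2 itself was at 10.9 to 13.1 FPKM in the unrestrained and at 9.93 to 12.1 FPKM in the restrained libraries (log2 change -0.05, SE 0.07, limma adjusted p = 0.884). With no wild-type library in this table, its level does not check the fathers' genotype.

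**Figure D2:**
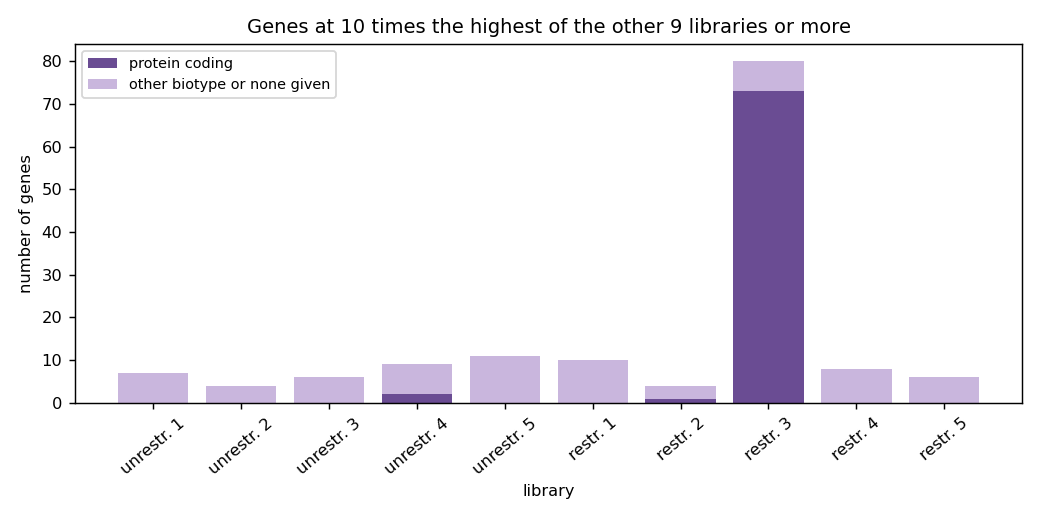
Number of genes (y axis) in each of the 10 libraries (x axis) that are at 1 FPKM or more and at 10 or more times the highest of the other 9 libraries, split into protein-coding genes and others. Restrained replicate 3 has 80 such genes and no other library more than 11.

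Genes of ovaries and eggs were among the highest of those that stood apart in restrained replicate 3. The highest, at 1172 FPKM, was the microRNA gene mir-2535b. The chorion protein gene Cp15 was at 1057 FPKM there and at 6.05 to 7.84 FPKM in the other 9 libraries. The vitelline membrane gene Vm26Aa was at 670 FPKM, against at most 0.608. The yolk protein gene Yp1, whose protein is laid down in the egg, was at 486 FPKM, which were 12127 fragments, against 1 to 11 fragments elsewhere. Cp36 rested on 4163 fragments in this library and on 0 or 1 in each other one. The thioredoxin gene dhd, known from the female germline, was at 287 FPKM against at most 3.82, and the oocyte gene osk at 31.2 against at most 0.159. Of the 23 yolk and eggshell markers in the table, 22 stood apart by this rule, as did 6 of the 16 female germline markers and 52 other genes. Among the other genes was yl, the receptor that takes up yolk protein, at 33.9 against at most 0.423 FPKM. Of the germline markers that did not stand apart, grk was at 13.1 FPKM there and at 13.9 to 15.8 FPKM elsewhere. The germline marker ovo was at 8.02 against at most 2.46 FPKM. Summed over the 23 yolk and eggshell markers, the level was 14.3 to 16.4 FPKM in the unrestrained libraries, 15.7 to 16.5 in the other restrained libraries and 5497 in restrained replicate 3. Of the 23, 18 were under 1 FPKM in each of the other 9 libraries, and without restrained replicate 3 only 4 reached the minimum level and could be tested. These 4 had a median log2 change of 0.06 without it and 1.29 with it, and 0 were called without it (limma, 1 higher, Yp3 at 0.19, and 0 lower at an unadjusted p under 0.05). The levels in this library say nothing of the other 4 restrained pools, and how this RNA came into a male pool was not tested. Heads of sons of restrained dATF-2KO fathers, a separate table, also had a replicate 3 with yolk protein RNA, with Yp1 at 499 FPKM against 1.08 to 2.06 in the other 4 restrained head libraries. Heads of sons of unrestrained dATF-2KO fathers had a replicate 3 with Yp1 at 12.8 FPKM, against 1.31 to 2.70 in the other 4. In the restrained head replicate 3, Cp15, Cp36 and Vm26Aa were each listed at 0.

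Acp98AB, an accessory gland protein gene on chromosome 3R of dm3 (23520605 to 23520773), had the smallest p of the comparison. It was at 6256, 7196, 6135, 7051 and 6000.0 FPKM in unrestrained replicates 1 to 5 and at 11789, 12911, 12142, 12081 and 11800.5 FPKM in restrained replicates 1 to 5. The lowest restrained library was above the highest unrestrained one by far more than either group's spread. The means were 6528 ± 554 and 12145 ± 457 FPKM (SD, n = 5 each), and the log2 change was 0.90 (SE 0.06, limma adjusted p = 1.31e-04). In fragments, Acp98AB had 1434 to 1972 in unrestrained and 2283 to 3145 in restrained libraries. Its share of the FPKM sum was 0.576 to 0.682% and 1.08 to 1.20%. CG43319, which lies 342 bases from Acp98AB and encodes a short protein of no named role, was at 1065 to 1401 FPKM in the unrestrained and at 1636 to 1876 in the restrained libraries (log2 change 0.52, SE 0.08, limma adjusted p = 0.0263). It was called in 3 of the 10 fits that left out 1 library, and Acp98AB in all 10.

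CG42852, a coding gene of 165 nt and no named role on chromosome 3L of dm3 (16748589 to 16748820), rose most in absolute FPKM after Mst57Db. It was at 8243, 10689.6, 9669, 10519 and 9137 FPKM in unrestrained replicates 1 to 5 and at 15106, 18056, 17414, 20866 and 17286 FPKM in restrained replicates 1 to 5. The groups did not overlap (log2 change 0.88, SE 0.09, limma adjusted p = 0.00461). Its share of the FPKM sum was 0.799 to 1.01% in unrestrained and 1.41 to 1.88% in restrained libraries, on 1770 to 2670 and 2655 to 4930 fragments.

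Mst57Db, an accessory gland peptide gene of 195 nt, had a mean of 20001 ± 2061 FPKM in unrestrained and 30784 ± 876 FPKM in restrained libraries (SD, n = 5 each). Its lowest restrained library, at 30013.7 FPKM, was above the highest unrestrained one, at 22049 FPKM. The log2 change was 0.63 (SE 0.07, limma adjusted p = 0.00461). The seminal fluid protein gene Sfp96F lies 494 bases from it on chromosome 3R and was at 4557 to 6498 FPKM in unrestrained and at 8304 to 9962 FPKM in restrained libraries (log2 change 0.72, SE 0.10, limma adjusted p = 0.0206). Sfp96F was called in 4 of the 10 fits that left out 1 library and Mst57Db in all 10, though Mst57Db lost its call under quantile normalization, with a log2 change of 0.13. The related genes Mst57Da and Mst57Dc, 661 and 957 bases from Mst57Db, had log2 changes of -0.15 (limma adjusted p = 0.638) and -0.05 (limma adjusted p = 0.892). Mst57Da and Mst57Dc have transcripts of 325 and 378 nt, and Mst57Db and Sfp96F of 195 and 168 nt. In this gene cluster, then, the shorter pair passed the test and the longer pair did not. Sfp70A4, a seminal fluid protein gene on chromosome 3L, was at 403, 490, 426, 569 and 479 FPKM in unrestrained replicates 1 to 5 and at 763, 899, 844, 968 and 796 FPKM in restrained replicates 1 to 5. These were 200 to 334 fragments against 310 to 529, and the log2 change was 0.86 (SE 0.10, limma adjusted p = 0.00499). Within 5000 bases of it lie Acp70A, which encodes the sex peptide (log2 change 0.44, limma adjusted p = 0.139), CG42481 (0.56, limma adjusted p = 0.102) and CG43147 (0.28, limma adjusted p = 0.276).

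As a list, accessory gland and ejaculatory duct markers numbered 36 tested genes, of which 2 were higher and 0 lower. In bulk tissue, fewer cells of a type and less RNA per cell cannot be told apart. The median log2 change of the list was -0.05, beside -0.02 for all tested genes, and 23 of the 36 had a negative change, beside 7160 of all 12363. The 4 members of at most 300 nt (Acp98AB, Mst57Db, Acp70A and Acp95EF) had a median of 0.53 and the 32 longer ones of -0.06. Among the longer ones, Dup99B, which encodes a ductus peptide like the sex peptide, had means of 1618 and 1972 FPKM (log2 change 0.29, limma adjusted p = 0.112). The ejaculatory bulb protein gene PebII had means of 10508 and 11809 FPKM (0.17, limma adjusted p = 0.355). Acp53Ea had a log2 change of -0.15 (limma adjusted p = 0.602), and Acp36DE, needed for sperm storage, of -0.15 (limma adjusted p = 0.831). The summed FPKM of the list was 73951 to 84579 in unrestrained and 93341 to 101661 in restrained libraries, and this sum is carried by the few very high short genes. Of 44 testis and sperm markers, 0 were higher and 0 lower (limma, 0 and 2 at an unadjusted p under 0.05), with a median log2 change of -0.03. Without restrained replicate 3 the counts of called members of both lists were the same, and the medians were -0.02 and 0.01.

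CG15068, annotated as BomS6, a short Bomanin, which is a family of peptides induced by the Toll immune pathway, was at 3447 to 4525 FPKM in unrestrained and at 5988 to 8470 FPKM in restrained libraries. The groups did not overlap, and the log2 change was 0.74 (SE 0.10, limma adjusted p = 0.0179), a call kept in 7 of the 10 fits that left out 1 library. Of 28 tested antimicrobial and immune-induced peptide genes on the list, which did not include CG15068, 0 passed in either direction, and 2 were higher and 0 lower at an unadjusted p under 0.05 in limma. Of the 28, 26 had a positive change, where 5203 of 12363 tested genes had one. The median was 0.21 (0.35 without restrained replicate 3 and 0.15 when adjusted for transcript length). All members were measured in the same 10 pools, so the count of positive changes is not one of independent observations. The summed FPKM of the list overlapped between groups, at 6437 to 11730 in unrestrained and 8324 to 13319 in restrained libraries. IM14, annotated as the Daisho peptide gene Dso2, was at 566 to 973 FPKM in unrestrained and at 1135 to 1765 FPKM in restrained libraries (log2 change 0.78, SE 0.16, limma adjusted p = 0.169). IM4, annotated as Dso1, had means of 471 and 647 FPKM (0.46, limma adjusted p = 0.367). The antifungal peptide gene Mtk varied more than 3-fold among unrestrained libraries, from 310 to 1172 FPKM, and its groups overlapped (0.60, SE 0.33, limma adjusted p = 0.737). The 4 tested Turandot stress peptide genes had a median log2 change of 0.16 and 0 passed (limma, 0 at an unadjusted p under 0.05).

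Among the higher genes, 4 were H/ACA snoRNAs, and they rested on few fragments. snoRNA:Psi18S-1820 had 6, 6, 7, 7 and 5 fragments in unrestrained replicates 1 to 5 and 18, 17, 16, 18 and 13 in restrained replicates 1 to 5. In FPKM it was at 45.6 to 66.3 and 116 to 206, a log2 change of 1.45 (SE 0.15, limma adjusted p = 0.00461). The locus of this snoRNA is contained in Nop60B, which encodes the pseudouridine synthase of H/ACA particles. Nop60B itself had means of 18.3 and 22.2 FPKM (log2 change 0.20, limma adjusted p = 0.864), with 39.5 FPKM in restrained replicate 3 and 16.8 to 20.2 FPKM in the other 9 libraries. snoRNA:Psi18S-176 had 10, 10, 11, 16 and 8 fragments in unrestrained and 21, 23, 32, 33 and 22 in restrained replicates 1 to 5. Its log2 change was 1.31 (SE 0.14, limma adjusted p = 0.00481). These 2 snoRNAs stayed called without restrained replicate 3 (limma adjusted p = 0.0203 and 0.0255).

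snoRNA:Or-aca5 had 6 to 16 fragments in unrestrained and 20 to 39 in restrained libraries (log2 change 1.47, SE 0.24, limma adjusted p = 0.0489). snoRNA:Psi28S-3342 had 5 to 11 and 17 to 29 fragments (1.66, SE 0.26, limma adjusted p = 0.0471). Both were past the threshold by little, were called in 2 of the 10 fits that left out 1 library and were not called without restrained replicate 3 (limma adjusted p = 0.132 for each). Also lost without that library, and called in 3 of these 10 fits, was unsRNA:CG10576-a, a small RNA in the locus of CG10576, with 3 to 7 and 11 to 18 fragments (log2 change 1.68, SE 0.24, limma adjusted p = 0.0245 with all libraries and 0.0975 without that one). CG10576 itself had means of 110 and 114 FPKM. A further H/ACA snoRNA, snoRNA:Psi18S-1854c, was at 31.9 to 75.8 FPKM in unrestrained and at 71.5 to 240 FPKM in restrained libraries, which overlap, and missed the threshold (limma adjusted p = 0.0903). Its host RpS5a, a ribosomal protein gene, had a log2 change of -0.06.

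Among 107 tested H/ACA snoRNAs, 4 were higher and 0 lower. At an unadjusted p under 0.05 in limma there were 20 higher and 7 lower, beside 379 and 527 of all 12363 tested genes. The median log2 change of the 107 was 0.25, with a positive change in 60. The 103 of them between 120 and 200 nt had a median of 0.16, beside 0.26 for all 171 tested genes of that length. The 68 tested C/D snoRNAs, which guide methylation of ribosomal RNA, had a median of 0.01 with 0 called (limma, 3 higher and 0 lower at an unadjusted p under 0.05). They are shorter, with a median of 83 nt against 140 nt, and 62 of the 68 were listed at 0 in at least 1 library, against 71 of the H/ACA set. Over all genes tested, the 5 restrained libraries lay above the 5 unrestrained ones for 112 genes (0.906%) and below them for 135 (1.09%), and of the 218 snoRNAs and unclassified small RNAs 6 lay above and 1 below. The paper's methods name a poly(A) selection, after which the level of RNAs without a poly(A) tail is uncertain.

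**Figure D3:**
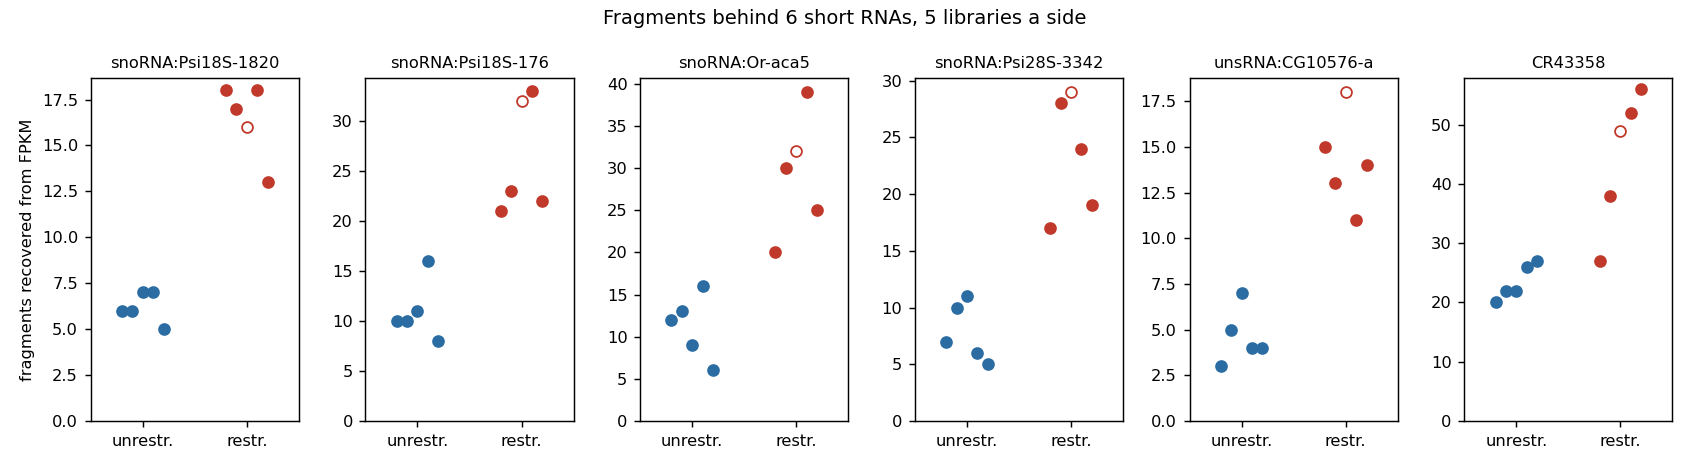
Whole fragments (y axis, from 0) recovered from FPKM for 6 short RNAs, with 1 point per library, blue for unrestrained and red for restrained fathers and an open point for restrained replicate 3. The unrestrained libraries hold 3 to 27 fragments and the restrained ones 11 to 56. For CR43358 the groups touch at 27 fragments, while their FPKM, scaled for depth, do not overlap.

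The noncoding RNA CR31084, annotated as an antisense RNA, was at 25.1, 33.7, 33.0, 32.4 and 28.5 FPKM in unrestrained replicates 1 to 5 and at 52.6, 68.3, 62.6, 58.5 and 59.2 FPKM in restrained replicates 1 to 5. The groups lay well apart on 120 to 183 and 206 to 316 fragments, and the log2 change was 0.97 (SE 0.09, limma adjusted p = 0.00382). It is 490 nt long and passed as well when the test was limited to transcripts of at least 400 nt. CG34291 overlaps its locus and had means of 533 and 501 FPKM (log2 change -0.09). If strand was used to keep reads of the 2 apart is not stated. The noncoding RNA CR43358 was at 22.0 to 29.0 FPKM in unrestrained and at 36.3 to 58.9 FPKM in restrained libraries (log2 change 0.93, SE 0.12, limma adjusted p = 0.0146). It was not called without restrained replicate 3 (limma adjusted p = 0.0531). CG42455, a coding gene of no named role, was at or near 0 in 4 unrestrained libraries, at 0.994 FPKM in unrestrained replicate 4 and at 1.71 to 3.90 FPKM in the restrained libraries. With means of 0.199 and 2.81 FPKM, it reached the minimum level for the test only through the group where it was high. Its locus in the table is shared with vnc, which was at a mean of 45.8 FPKM with a log2 change of -0.00, so its few fragments could be split between the genes and its values are uncertain. Its call was lost without restrained replicate 3 (limma adjusted p = 0.0263 with all libraries and 0.0595 without) and in 8 of the 10 fits that left out 1 library.

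Cyp4p2, a cytochrome P450 gene, fell from 6.49, 6.08, 5.53, 5.37 and 5.03 FPKM in unrestrained replicates 1 to 5 to 3.90, 3.79, 3.16, 3.83 and 3.85 FPKM in restrained replicates 1 to 5. Each unrestrained library had at least 141 fragments of it, and the groups did not overlap. The log2 change was -0.56 (SE 0.08, limma adjusted p = 0.0245), a call kept in 3 of the 10 fits that left out 1 library. The table gives 1 shared locus to Cyp4p2, Cyp4p1, Cyp4p3 and hig, and Cyp4p1 and Cyp4p3 had log2 changes of -0.02 and 0.06. Cyp6a2, a P450 gene known for insecticide resistance, was at 76.3 to 84.3 FPKM in unrestrained and at 51.0 to 61.7 FPKM in restrained libraries. Its log2 change of -0.44 (SE 0.06) had a limma adjusted p = 0.0146 and missed 1.4-fold, as did CG8083, annotated as the nucleoside transporter gene CNT2. Of 75 tested P450 genes, 0 were higher and 1 was lower, and in limma 1 was higher and 15 were lower at an unadjusted p under 0.05. A negative change was seen in 62 (median -0.07, and -0.04 without restrained replicate 3). Of all 12363 tested genes, 15 were higher and 3 lower, 379 were higher and 527 lower at that unadjusted p, and 7160 had a negative change. Cyp12d1-p, with means of 2.64 and 1.62 FPKM, and Cyp6t1, with means of 11.6 and 9.55 FPKM, did not overlap between groups and did not pass (limma adjusted p = 0.119 and 0.256).

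CG6295, a gene of the pancreatic-type lipase family, was at 357, 339, 322, 337 and 344 FPKM in unrestrained replicates 1 to 5 and at 278, 223, 270, 221 and 225 FPKM in restrained replicates 1 to 5. The log2 change was -0.49 (SE 0.07, limma adjusted p = 0.0263), on 2981 to 6120 fragments, and was called in 2 of the 10 fits that left out 1 library. It stands in a locus with other lipase genes of the table, of which CG17192 had means of 53.8 and 39.0 FPKM without overlap (log2 change -0.48, limma adjusted p = 0.180) and CG6277 had a log2 change of -0.00. Of 24 tested lipase and lipid droplet genes, 1 was lower, and 0 were higher and 8 lower at an unadjusted p under 0.05, with a median of -0.10. For all 12363 tested genes the counts at that p were 379 and 527, with a median of -0.02. Of digestive enzymes of the midgut, 0 of 39 passed, 1 was higher and 11 were lower at an unadjusted p under 0.05 in limma, and the median was -0.06. Among these, the protease gene Jon74E had means of 141 and 113 FPKM (log2 change -0.31, limma adjusted p = 0.123) and the amylase gene Amy-p of 362 and 294 FPKM (-0.30, limma adjusted p = 0.180), both without overlap of the groups. CG31259, of no named role, was at 5.62 to 6.27 FPKM in unrestrained and at 3.75 to 4.52 FPKM in restrained libraries, on 164 to 209 and 97 to 126 fragments. Its log2 change was -0.53 (SE 0.06, limma adjusted p = 0.00481), also -0.53 without restrained replicate 3 (limma adjusted p = 0.0203).

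Without restrained replicate 3, 1 gene was called that had not been. This was fit, a fat body gene with higher expression in females and a role in feeding control. It was at 28.6 to 35.9 FPKM in the unrestrained libraries, at 41.9 FPKM in restrained replicate 3 and at 18.6 to 22.3 FPKM in the other 4 restrained libraries. The log2 change was -0.41 with all libraries (SE 0.19, limma adjusted p = 0.682) and -0.62 without that one (SE 0.08, limma adjusted p = 0.0255). The library with ovary RNA was the one above the unrestrained range. Without it 6 higher genes were lost: CG42455, CR43358, Sfp96F, snoRNA:Or-aca5, snoRNA:Psi28S-3342 and unsRNA:CG10576-a. Restrained replicate 3 was within the range of the other restrained libraries for each of these, and their log2 changes without it were 0.74 to 2.45.

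The change of a gene went with the length of its transcript. By length classes chosen after the values were seen, the median log2 change was 0.26 for 171 genes of 121 to 200 nt and 0.29 for 67 genes of 201 to 300 nt. It was 0.05 for 460 genes up to 500 nt, 0.01 for 2258 up to 1000 nt, -0.01 for 4055 up to 2000 nt, -0.02 for 4001 up to 5000 nt and -0.04 for 1167 longer ones. A positive change was seen in 71.6% of the genes of 201 to 300 nt and in 23.3% of those over 5000 nt. The 143 genes of at most 120 nt had a median of -0.02. In the class of 201 to 300 nt, the median deviation of the genes from their own median over the 10 libraries lay between -0.15 and -0.02 in the unrestrained and between -0.00 and 0.15 in the restrained libraries. Without restrained replicate 3 the medians of the 2 shortest classes above 120 nt were 0.37 and 0.29. In heads of sons of dATF-2KO fathers these classes had medians of 0.04 and 0.10, and in heads of sons of w1118 fathers of -0.14 and 0.04, in tables scaled separately and with no test of the difference.

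**Figure D4:**
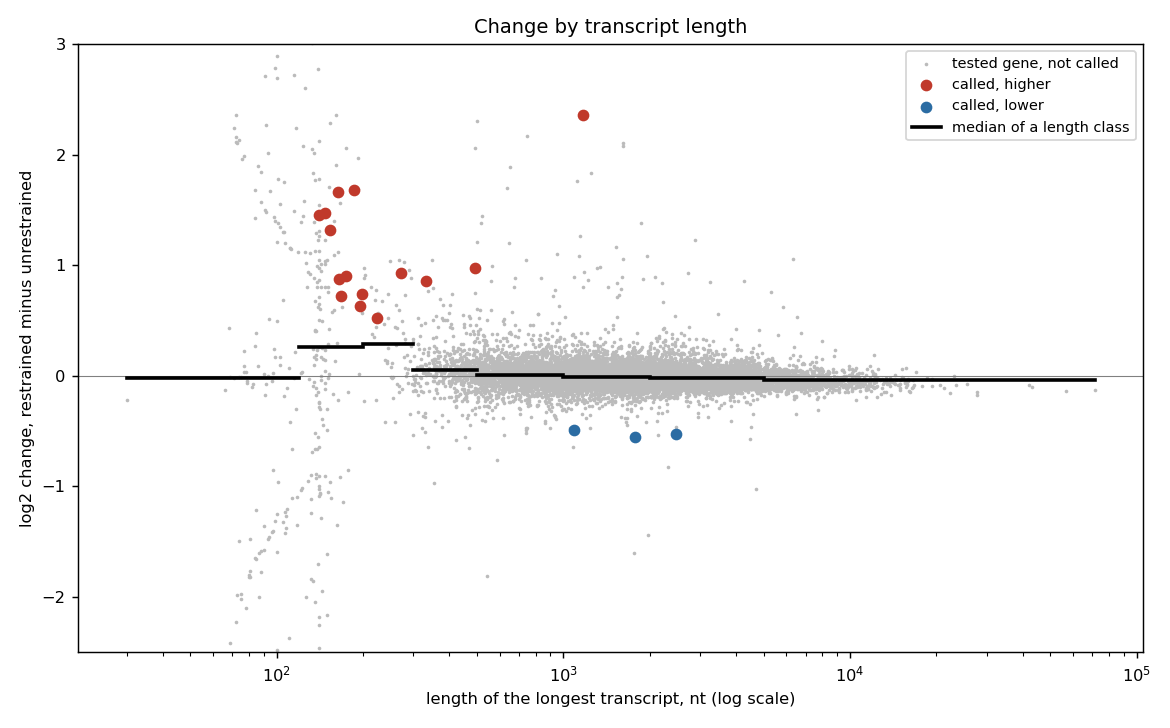
Log2 change after paternal restraint (y axis) against the length of the longest annotated transcript (x axis, log scale) for 12322 tested genes, with called genes in colour and black lines for the median of each length class. The y axis leaves out 31 genes, none of them called. Of the 15 higher genes, 13 lie under 400 nt, where the medians reach 0.29, and the 3 lower genes lie between 1091 and 2464 nt.

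Of 12 coding genes with a transcript of at most 300 nt and a mean of at least 1000 FPKM, 12 had a positive change and 6 were called, with a median log2 change of 0.59. That mean is over all 10 libraries. IM14, with means of 821 FPKM in unrestrained and 1400 FPKM in restrained libraries, reached it only through the restrained ones, so its positive change is partly selected. The 5 of at most 200 nt (CG42852, Sfp96F, Acp98AB, Mst57Db and CG15068) had log2 changes of 0.63 to 0.90, and all were called. The 7 longer ones ranged from 0.06 for the ribosomal protein gene RpL39, at 288 nt, and 0.11 for the accessory gland gene Acp95EF, at 243 nt, to 0.78 for IM14, at 223 nt. The 30 coding genes as high as these but of 301 to 500 nt had a median of 0.01, and the 103 longer ones of 0.00. Together the 12 genes made up 6.85 to 8.49% of the FPKM sum in unrestrained and 10.3 to 11.6% in restrained libraries.

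A short transcript takes few fragments to reach a high FPKM. In unrestrained replicate 1, 1 fragment was worth 12.7 FPKM for Sfp96F (168 nt), 4.23 for Acp98AB (175 nt) and 9.36 for snoRNA:Psi18S-1820 (140 nt), but 0.0651 for CG6295 (1091 nt). CG6295 therefore rested on more fragments at 357 FPKM than Acp98AB did at 6256 FPKM. The worth of a fragment did not follow the printed length closely among short genes, as it was 4.66 FPKM for CG42852 (165 nt) and 12.7 for Sfp96F (168 nt). The printed lengths come from a later annotation and need not be those behind the FPKM. The relative worth of 1 fragment between libraries had been set from genes under 0.3 FPKM and from genes of moderate counts, and the same ratios gave whole fragments for 172 of 179 genes of 121 to 300 nt under 100 FPKM. Of 221 genes of this length at any level, 206 gave whole fragments, and Mst57Db was not among them. For genes whose fragments were recovered, the differences in FPKM were differences in fragment numbers scaled for depth. Whether the preparation of the libraries, such as the sizes of fragments kept, took part in the higher counts of short RNAs was not tested. When each library was adjusted for the relation with transcript length, 9 genes were higher and 2 lower: CG15068, CG43319, Sfp96F, snoRNA:Or-aca5, snoRNA:Psi28S-3342, unsRNA:CG10576-a and CG6295 were lost. Their log2 changes stayed close, for CG15068 from 0.74 to 0.64, for Sfp96F from 0.72 to 0.62, for snoRNA:Psi28S-3342 from 1.66 to 1.56 and for CG6295 from -0.49 to -0.48, and CG43319, at 0.43, was lost for missing 1.4-fold (limma adjusted p = 0.0441). The curve was fitted over all genes of a library. It shifted the short genes named here by less than the medians of their length classes, 0.26 and 0.29. Part of the relation with length therefore stayed in place, and calls kept after the adjustment are not free of it. Acp98AB then had a log2 change of 0.80 (limma adjusted p = 0.00367), Mst57Db of 0.53 (limma adjusted p = 0.0456), CG42852 of 0.78 (limma adjusted p = 0.0240) and snoRNA:Psi18S-1820 of 1.35 (limma adjusted p = 0.00669). With that adjustment and without restrained replicate 3, 5 genes were higher, and the calls of CG42852 (0.75, limma adjusted p = 0.0925) and Mst57Db (0.51, limma adjusted p = 0.156) were lost. Among transcripts of at least 400 nt, 2 genes were higher, CR31084 and CG42455, and 3 were lower. CG42455 could be tested only through its level in the restrained libraries.

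Of 34 TCA cycle genes 0 passed (limma, 0 higher and 5 lower at an unadjusted p under 0.05), with a median log2 change of -0.07 and of -0.02 without restrained replicate 3. Beside these and the lists that follow, 379 of all 12363 tested genes were higher and 527 lower at that p. In galactose, starch and sucrose metabolism, 0 of 33 genes passed (0 higher and 8 lower at an unadjusted p under 0.05), and the medians were -0.08 and -0.06. For 25 glycolysis genes (0 and 2) they were -0.04 and -0.00, and for 29 genes of one-carbon, serine and glycine metabolism (1 and 4) -0.04 and -0.04. The 72 mitochondrial ribosomal protein genes, with 0 called and 8 higher and 0 lower at an unadjusted p under 0.05, had medians of 0.05 and 0.04. Of the 16 tested genes of Atf-2 and the p38 kinase pathway, 0 passed (limma, 0 at an unadjusted p under 0.05), and among them the kinase gene p38c had means of 6.77 and 7.69 FPKM (limma adjusted p = 0.717). Of 23 genes of heterochromatin and histone methylation, 0 passed (limma, 0 at an unadjusted p under 0.05), with a median of 0.01. Of 17 tested heat shock, 24 muscle and 93 cytosolic ribosomal protein genes, 0 passed as well (limma, 0 and 1, 0 and 0, and 10 and 3 higher and lower at an unadjusted p under 0.05).

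**Figure D5:**
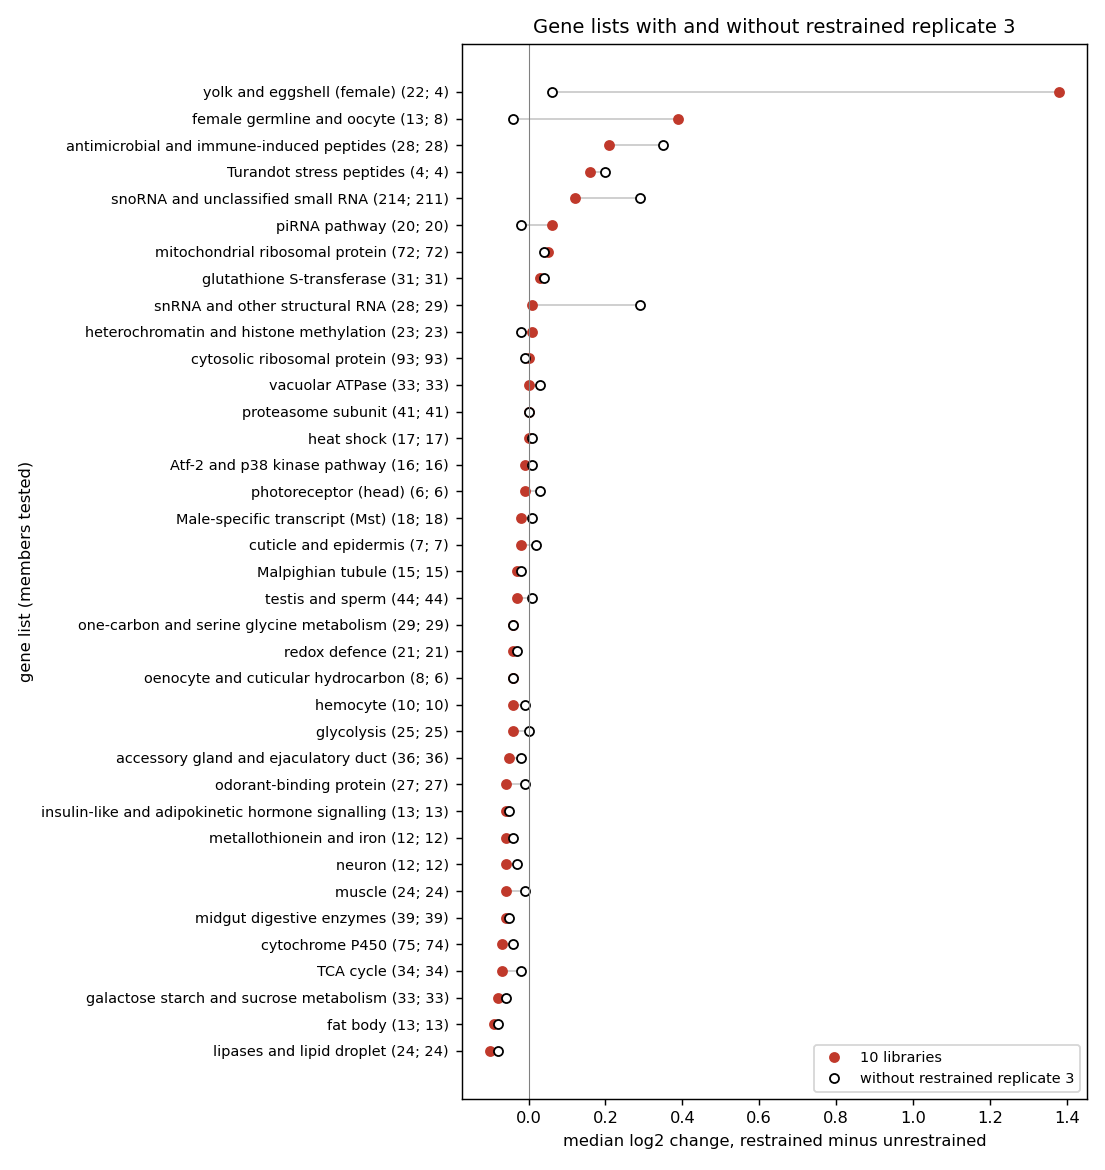
Median log2 change (x axis) of the tested members of each of 37 gene lists (y axis), with all 10 libraries in red and without restrained replicate 3 as open points, and the members tested in each case in brackets. The lists of yolk and eggshell and of female germline genes stand at 1.38 over 22 members and 0.39 over 13 with all libraries, many of which reached the minimum level only through that library, and at 0.06 over 4 and -0.04 over 8 without it, while the immune peptide list stands at 0.21 and 0.35.

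By chromosome of the table, the 84 tested genes of the heterochromatic chromosome 4 had a negative change in 71, beside 7160 of all 12363 tested genes. Their median was -0.06, with 0 called (limma, 0 higher and 8 lower at an unadjusted p under 0.05, beside 379 and 527 of all tested genes). Without restrained replicate 3 the median was -0.05, with 0 higher and 3 lower at that p. The 7 tested genes placed on Y heterochromatin each had a negative change, with a median of -0.09, and of -0.06 without restrained replicate 3. Chromosomes 2L, 2R, 3L and 3R each had a median of -0.02 and X of -0.01. Transcripts of chromosome 4 are long, with a median of 3748 nt against 1704 nt over all tested genes, and adjusted for length its median was -0.04.

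In heads, 0 of the called genes passed in the same test. With dATF-2KO fathers 13 of the 18 reached the minimum level there and the lowest limma adjusted p was 0.569, and with w1118 fathers 9 did and the lowest was 0.162. CG15068 was high in heads too, at 8979 to 12165 FPKM with unrestrained and 11025 to 12657 FPKM with restrained dATF-2KO fathers (log2 change 0.14, limma adjusted p = 0.569). Acp98AB, CG42852, Mst57Db and Sfp96F each had a median under 5 FPKM in heads of both groups with dATF-2KO fathers, and Sfp70A4 and CR43358 were listed at 0 in each of these libraries. The difference between bodies and heads was not tested.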

How the data were processed

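The authors mapped reads to the dm3 build and deposited FPKM values, scaled within each table; the submitters' processing notes name CASAVA, TopHat2, Cufflinks and Cuffnorm, without versions. For the kit, the paper (stranded total RNA, with poly(A) selected first) and the labels differ, which was not settled. Columns of the authors' own ratios, p-values, q-values and related estimates were not used, nor were 12 per-library columns of the table for bodies with w1118 fathers, whose names show no sample. Samples were grouped by title. Groups were compared with limma 3.58.1 in R 4.3.3 on log2(FPKM + 0.5) with a mean-variance trend, for genes averaging 1 FPKM or more, at an adjusted p of 0.05 and 1.4-fold. The members, gene lists and tests were chosen with earlier results of these data known. Genes named are the called genes, Atf-2, up to 4 members of each list by smallest p, the genes highest in a library that stands apart, genes gained or lost without restrained replicate 3 and hosts of small RNAs; others, such as neighbours of called genes and short abundant genes, were chosen after their values were seen. Transcript lengths are the longest per gene in the Ensembl annotation of a later build (99.2% of genes matched) and no coordinate of that build was used; coordinates printed are those of the table, with the left end raised by 1. Fragments were recovered from the FPKM steps within 0.02. The alternatives were other pseudocounts, minimums, scalings and fits, a replicate block, each library left out and, chosen after seeing the data, an adjustment of each library for length by a spline with 6 degrees of freedom and a limit of 400 nt. Of the 15061 genes, 5 have a date as symbol and stayed in the tests. Genes that overlap or have near-identical copies are uncertain where reads could be split. The method was tested on simulated data.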

Additional observations from a re-analysis of the deposited data

Results flagged for a closer look

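Within groups of 5 libraries, the library furthest from the others was tested by Dixon's ratio at its 95% critical value for the called genes, fit, Atf-2 and the 12 genes highest in restrained replicate 3, in 64 groups, of which chance alone would flag about 1 in 20. Restrained replicate 3 stood out for each of those 12: mir-2535b at 1172 FPKM, Cp15 at 1057, Vm34Ca at 774, Vm26Aa at 670, Yp1 at 486, Yp2 at 460, snoRNA:Me18S-A1061 at 448, Cp38 at 370, Cp19 at 318, dhd at 287, Cp36 at 249.9 and Yp3 at 235 FPKM. They had been picked for being high in that library, so these flags are a description. In the same library fit was high at 41.9 FPKM and Cyp4p2 low at 3.16 FPKM, against 3.79 to 3.90 FPKM in the other restrained libraries.

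In other libraries, CG42455 was at 0.994 FPKM in unrestrained replicate 4, CG15068 was low at 3447 FPKM in unrestrained replicate 1, and CG31259 was at 4.52 FPKM in restrained replicate 1. Among low values, Vm34Ca was at 0.433 FPKM in unrestrained replicate 3, Yp2 at 0.208 FPKM in unrestrained replicate 5 and Cp19 at 0.110 FPKM in unrestrained replicate 4.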

How the results depend on the processing

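The counts of 15 higher and 3 lower genes depend on single libraries: without each library in turn, 7 to 15 genes were higher and 1 to 4 were lower. Higher genes numbered 9 without unrestrained replicate 5, 7 without restrained replicate 2, 9 without restrained replicate 3 and 9 without restrained replicate 5, and lower genes 1 without unrestrained replicate 2, 3 or 4. Of the higher genes, 7 were called in each of these 10 fits, and of the lower genes 1, CG31259. The number of higher genes was 6 with no minimum level and restrained replicate 3 left out, 9 when adjusted for transcript length, 5 with that adjustment and restrained replicate 3 left out, and 2 for transcripts of at least 400 nt. The number of lower genes was 1 with a minimum mean of 5 FPKM, 5 when scaled to equal sums, 5 with no threshold on the fold and 6 with array weights. With the replicate number as a replicate block, 17 genes were higher and 0 lower (limma, 382 and 490 at an unadjusted p under 0.05, beside 379 and 527 without the block). No shared deviation of same-numbered libraries was seen (correlations of -0.11 to 0.05, and 2 of 10 libraries matched their own number best). This cannot exclude that the numbers pair the pools in the design. The paper states that offspring of sibling parents were compared, but not if the numbers follow this. Under the remaining alternatives 10 to 17 genes were higher and 2 to 4 lower. Scaling to equal sums moved the median of all genes to -0.07 and the split at an unadjusted p under 0.05 to 155 higher and 2119 lower, and median-ratio scaling moved it to 540 and 404. No called log2 change turned its sign. Of the 37 list medians, 24 moved, each down, with equal sums and 10 without restrained replicate 3, where 8 changed sign and some lists had fewer members tested. Acp98AB, Sfp70A4, CR31084, snoRNA:Psi18S-1820 and snoRNA:Psi18S-176 were called under each alternative that could test them, except that those under 400 nt could not enter the fit of longer transcripts. The few fragments of the snoRNAs limit their precision, and changes under 1.4-fold were not called.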
